A study of Gallus gallus with 144 samples.

Results

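The genes described here encode the factors and enzymes that carry out protein synthesis: 46 translation factors and regulators named with them, and 25 aminoacyl-tRNA synthetases. They were chosen by gene name among peaks that carried the authors' promoter label, as symbols starting with EIF and a digit, EEF1 or EEF2, or equal to ETF1 or GSPT1, without EIF4EBP1, and as symbols of the form AARS, AARS1 or AARS2 with any first letter, or EPRS. The factors held 95 and the synthetases 49 of the 24969 promoter peaks, and together they were 71 of 10437 labelled genes. GSPT1, a release factor that the rule would take, was not among the labelled genes. That symbol was also not among the protein-coding genes of the GRCg7b table used for names. GSPT2, which the rule does not take, had 4 promoter peaks. The peaks came from CAGE, an assay that sequences the capped 5′ ends of RNA and so marks where transcription starts. Libraries came from 24 chickens, 12 labelled fast growing and the other 12 slow growing. Brain, breast, heart, kidney, leg and liver were taken from each bird, which gave 12 groups of 12 libraries, and the labels used here name no breed, age or treatment.

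All libraries shared 1 list of 153662 peaks (GRCg6a coordinates), in which no column belonged to a library. It gave positions, strands, widths and labels, and the depth and height of each peak are unknown. Growth types and tissues were therefore not compared here, and the tissue labels could not be checked against marker genes. The 2 families were compared with each other and with all 10430 genes whose promoter peaks lay on 1 sequence and strand. Genes are not replicates, so shares have 95% Wilson intervals that cover counting over genes only, and no test of a difference was made.

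Translation begins when initiation factors bring the initiator tRNA and the small ribosomal subunit to an mRNA, with eIF2 carrying the tRNA, eIF3 acting as a scaffold and the eIF4 proteins binding the cap and unwinding the leader. Elongation factors then deliver charged tRNAs (eEF1A) and move the ribosome along (eEF2), and release factors end the chain. Aminoacyl-tRNA synthetases load each tRNA with its amino acid, in the cytosol and, through a largely separate set of nuclear genes, in mitochondria. In mammals, mRNAs of many translation factors share with ribosomal protein mRNAs a pyrimidine-rich 5′ end that places their translation under mTOR control, and many cytosolic synthetase genes are targets of the stress factor ATF4.

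In number and spacing of promoter peaks, both families lay near the values of all labelled genes. Of the translation factors, 30 of 46 had at least 2 promoter peaks (65.2%, interval 50.8 to 77.3), and of the synthetases 17 of 25 (68%, interval 48.4 to 82.8), beside 64% of all labelled genes. The median was 2 peaks in both families and over all genes. At least 3 were found at 15 factors (32.6%) and 6 synthetases (24%), beside 36.4% of all labelled genes. No member had more than 4, while 9.41% of all labelled genes had at least 5. Neighbouring promoter peaks of the same gene lay a median of 21 bp apart in both families and 23 bp apart over all genes. Values were less alike within the synthetases, although their intervals overlapped. Of 12 cytosolic synthetases 11 had at least 2 peaks (91.7%, interval 64.6 to 98.5), and of 13 mitochondrial synthetases 6 did (46.2%, interval 23.2 to 70.9). Among the related gene sets, 18 of 56 cytosolic ribosomal protein genes (32.1%) and 32 of 48 mitochondrial ribosomal protein genes (66.7%) had at least 2. Within the synthetases, KARS and GARS, which serve both compartments in mammals, were counted as cytosolic. NARS and IARS1 reached 2 only through a 1 bp peak. Gaps of at most 20 bp separated the peaks of AARS, DARS, EPRS and NARS, and of the mitochondrial EARS2 and NARS2. MARS2 and PARS2, with 1 labelled peak each, had unlabelled peaks nearby on the same strand. The 2 synthetase sets were not recounted for these points.

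**Figure D1:**
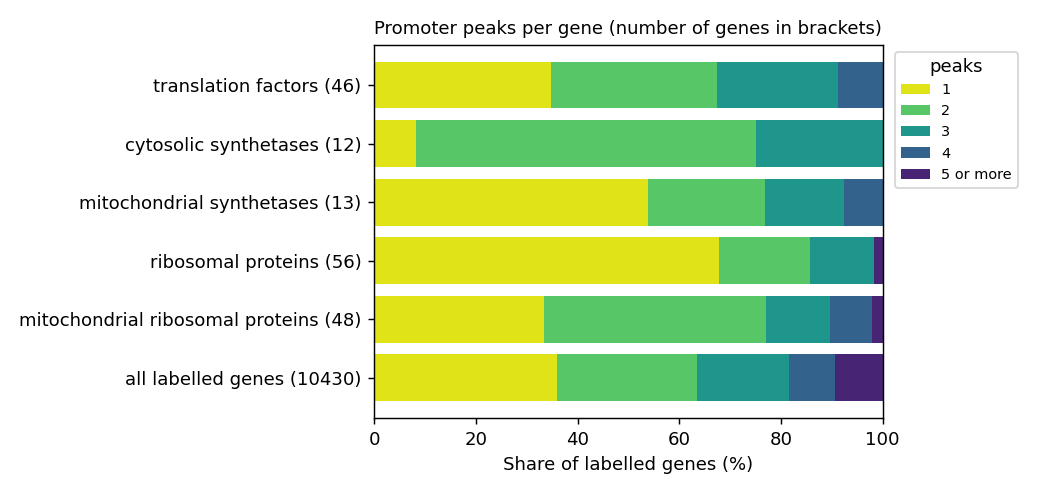
Share of labelled genes (x axis, percent) with 1, 2, 3, 4 or at least 5 promoter peaks in each gene set, with the number of genes in brackets. Only 1 of 12 cytosolic synthetases had a single peak, against 7 of 13 mitochondrial synthetases and 16 of 46 translation factors, and none of these 3 sets reached 5.

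Among factors that pick the start codon and join the ribosomal subunits, EIF1AX, which helps scanning ribosomes find the start codon, had 4 promoter peaks within 59 bp of chromosome 1. EIF1B, a close copy of EIF1, also had 4, spread over 235 bp of chromosome 2 (43920620 to 43920900, minus strand). Its first peak was 64 bp wide, the others 16, 7 and 20 bp. EIF5B, the GTPase of subunit joining, had 3 peaks within 23 bp and EIF6, which keeps the large subunit free until it is needed, had 2 that lay 25 bp apart. EIF1 itself had a single peak of 1 bp on chromosome 27, and EIF5, the GTPase-activating partner of eIF2, a single peak of 2 bp on chromosome 5. EIF5 also had unlabelled peaks of 6 bp on the same strand, at 195 and 322 bp past its labelled one. These 6 genes thus ranged from 1 to 4 labelled peaks, and the copies EIF1 and EIF1B lay at opposite ends of that range. The sequences of these copies were not compared, and the treatment of reads that match several places is unknown here.

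The eIF2 complex and its exchange factor eIF2B, which reloads it with GTP, gave 6 labelled genes. EIF2S1, the subunit that stress kinases phosphorylate, had 3 peaks within 24 bp of chromosome 5. EIF2B3 had 3 peaks over 254 bp of chromosome 8, the last of them 1 bp wide and 244 bp past the rest. EIF2S3, which binds GTP and the initiator tRNA, had a 28 bp peak and a 3 bp peak 230 bp downstream of it. EIF2S2 had 2 peaks that lay 27 bp apart. EIF2B1 and EIF2B2 had 1 peak each, of 33 and 34 bp. By labelled peaks, these genes had either several narrow peaks or 1 broad one, apart from EIF2S3 with a broad and a narrow peak. A single broad peak was seen only at EIF2B1 and EIF2B2. EIF2B1 also had an unlabelled own-strand peak of 6 bp, 95 bp past its labelled one.

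The kinases that phosphorylate eIF2 were labelled for 3 of the 4 genes known in vertebrates (75%, interval 30.1 to 95.4). Over all protein-coding genes with a symbol the labelled share was 57%. EIF2AK3, the PERK kinase of the endoplasmic reticulum, had 3 peaks within 34 bp, and EIF2AK4, the GCN2 sensor of uncharged tRNA, had 2 that lay 22 bp apart. EIF2AK2, the PKR kinase activated by double-stranded RNA, had a single peak of 18 bp on chromosome 3 and, downstream of it on the same strand, 3 unlabelled peaks at 274, 296 and 449 bp. The last of these was 74 bp wide, against 18 bp for the labelled one. EIF2AK1 had no label.

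eIF3 is a complex of many subunits. Of its 12 genes in the reference table of the GRCg7b assembly, 11 had a labelled promoter peak (91.7%, interval 64.6 to 98.5). Over all protein-coding genes of that table with a symbol, 57% did. EIF3B, a scaffold subunit, had 3 peaks, of which the last lay 248 bp past its neighbour on chromosome 14 (3509084 to 3509359). EIF3D, a cap-binding subunit in human cells, had 3 peaks within 40 bp. EIF3A and EIF3J had 2 peaks each, 36 and 41 bp apart, and EIF3I had 2 that lay 17 bp apart. The other 6, namely EIF3E, EIF3F, EIF3G, EIF3H, EIF3L and EIF3M, had 1 peak each, from 2 bp at EIF3H to 16 bp at EIF3G. EIF3K was the gene without a label. Subunits of this 1 complex thus differed in the number and width of their labelled promoter peaks. Unlabelled own-strand peaks also lay near some of them. EIF3D had such peaks at 205, 228 and 237 bp past its first promoter peak, EIF3I at 237 bp and EIF3J at 158 bp. At EIF3G, an unlabelled peak of 7 bp lay upstream of the labelled one. Labelled peaks therefore do not give the full number of start site clusters per subunit.

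Among the eIF4 genes, EIF4A2, a helicase that unwinds mRNA leaders, had the most dispersed labelled peaks. They were 6, 4 and 2 bp wide, at 0, 189 and 887 bp from the first on chromosome 9. EIF4G2, a scaffold that works without the cap-binding protein, had 3 peaks within 33 bp of chromosome 5, and EIF4E, the cap-binding protein, 3 within 31 bp of chromosome 4. EIF4E2, a cap-binding relative that represses translation in mammals, had a 42 bp peak 82 bp downstream of an 8 bp one. EIF4G1, the main scaffold, EIF4A3, a helicase of the exon junction complex, and EIF4E3 had 2 peaks each, 17, 20 and 16 bp apart. EIF4G3 had 1 peak of 8 bp, and EIF4H 1 peak of 1 bp. Past the first promoter peak, unlabelled own-strand peaks lay at 245 bp in EIF4E, 48 bp in EIF4G1 and 372 bp in EIF4G2. That of EIF4E was 32 bp wide, against 4 to 7 bp for its labelled peaks. Of the proteins that bind eIF4E, EIF4EBP2 had 2 peaks that lay 22 bp apart. EIF4EBP1, left out by the rule, had 3 within 70 bp.

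**Figure D2:**
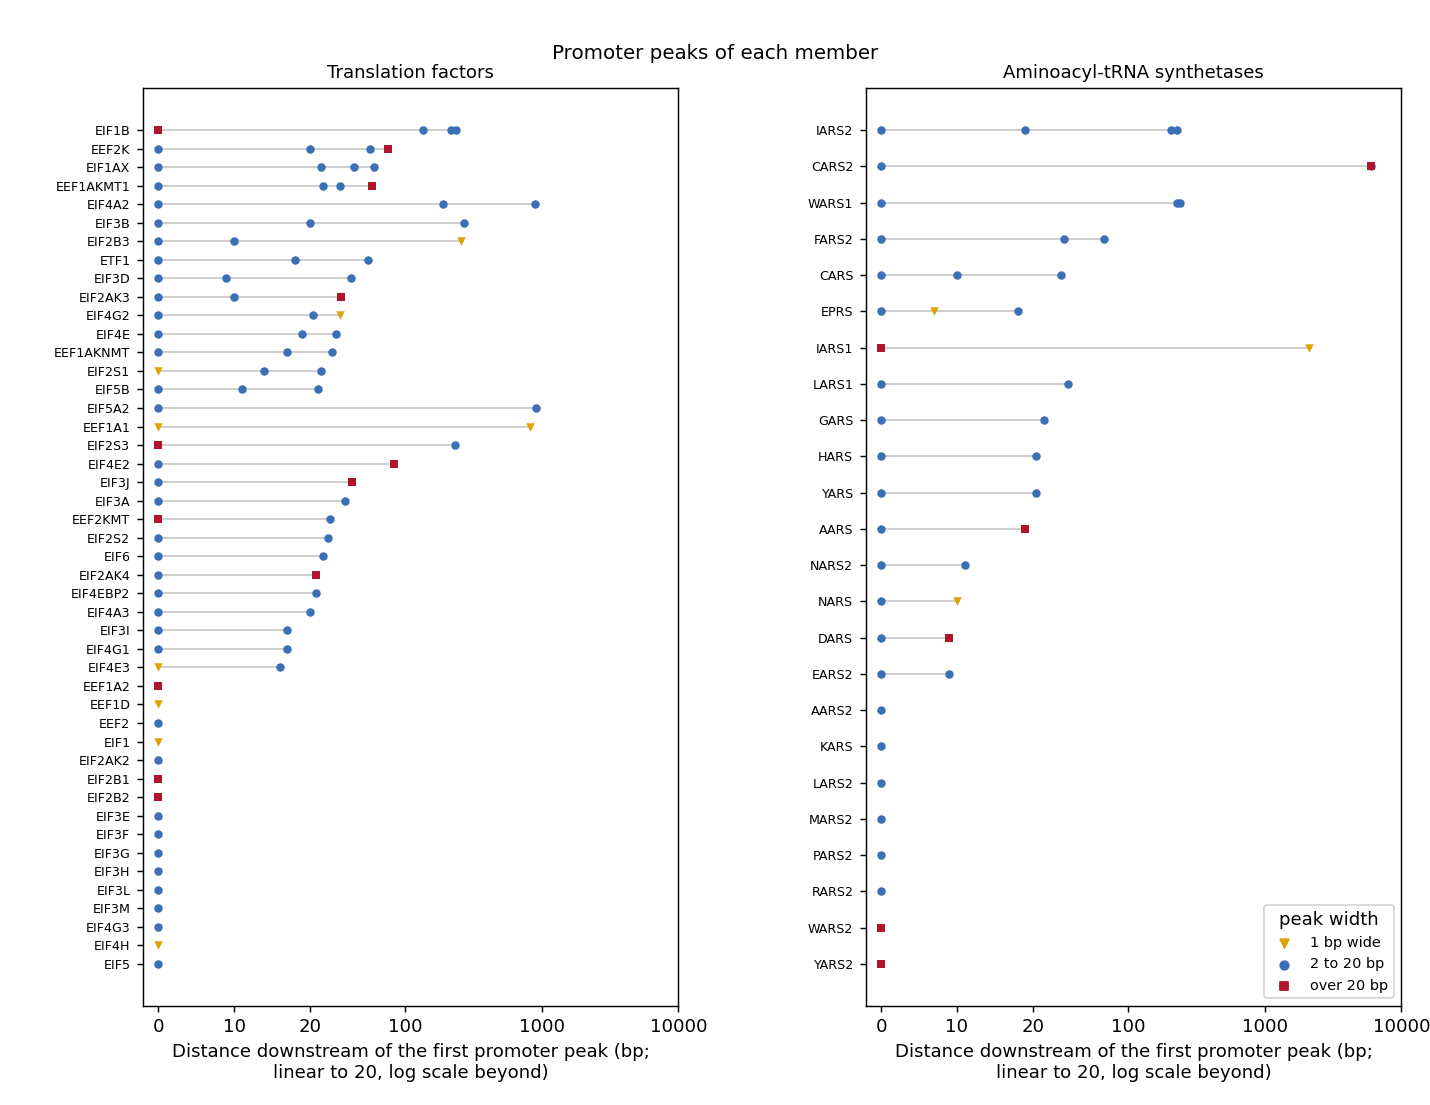
Each row is 1 of 70 genes and each mark a promoter peak, placed by its distance in bp downstream of the first promoter peak of that gene (linear to 20 bp, log scale beyond). Marks show peak width, and most genes stay within 100 bp, with EIF5A2, EIF4A2 and EEF1A1 among the factors and CARS2 and IARS1 among the synthetases reaching beyond 500 bp.

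Elongation factor genes had 1 or 2 promoter peaks each, with widths from 1 to 656 bp. EEF1A2, the eEF1A form of muscle and neurons in mammals, had 1 promoter peak of 656 bp on chromosome 20 (9012193 to 9012848, minus strand), which was rank 5 by width of all 24969 promoter peaks. It was the 1 factor of 46 with a peak over 100 bp (2.17%), beside 2.71% of all labelled genes. EEF1A1, the form of most other cells, had 2 peaks of 1 bp each on chromosome 3, at 81503064 and 81503877, which is 813 bp apart. EEF1D, a subunit of the exchange factor that reloads eEF1A, had 1 peak of 1 bp on chromosome 2. EEF2 had 1 peak of 19 bp on chromosome 28 (1553176 to 1553194), and EIF5A2, a form of the factor that helps peptide bonds form at difficult sequences, had peaks of 6 and 7 bp that lay 902 bp apart. By labelled peaks, the eEF1A genes thus held the widest member peak and some of the narrowest. Their sequences were not compared, and the treatment of reads that match several places is unknown here. The enzymes that modify elongation factors had more peaks: 4 each at EEF1AKMT1, a lysine methyltransferase of eEF1A, and EEF2K, the kinase that stops eEF2, 3 at EEF1AKNMT and 2 at EEF2KMT. ETF1, the release factor that reads stop codons, had 3 peaks within 53 bp of chromosome 13.

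Members with nothing but 1 bp promoter peaks were the factors EEF1A1, EEF1D, EIF1 and EIF4H, 4 of 46 (8.70%, interval 3.43 to 20.3), and no synthetase (0 of 25, interval to 13.3), beside 4.82% of all labelled genes. In the ribosomal protein set 15 of 56 genes (26.8%) were of this kind. Counted over peaks, 9 of 95 peaks of translation factors (9.47%) and 3 of 49 of synthetases (6.12%) were 1 bp wide, beside 5.67% of all promoter peaks. The median peak width was 7 bp in translation factors, 8 bp in synthetases, 4 bp in ribosomal proteins and 9 bp over all genes. The widest factor peaks after EEF1A2 were those of EIF1B (64 bp) and EIF3J (46 bp). In the synthetases they were those of AARS (57 bp), WARS2 (30 bp) and YARS2 (23 bp). A widest peak over 20 bp was found in 12 factors (26.1%) and 6 synthetases (24%), beside 31.9% of all labelled genes.

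**Figure D3:**
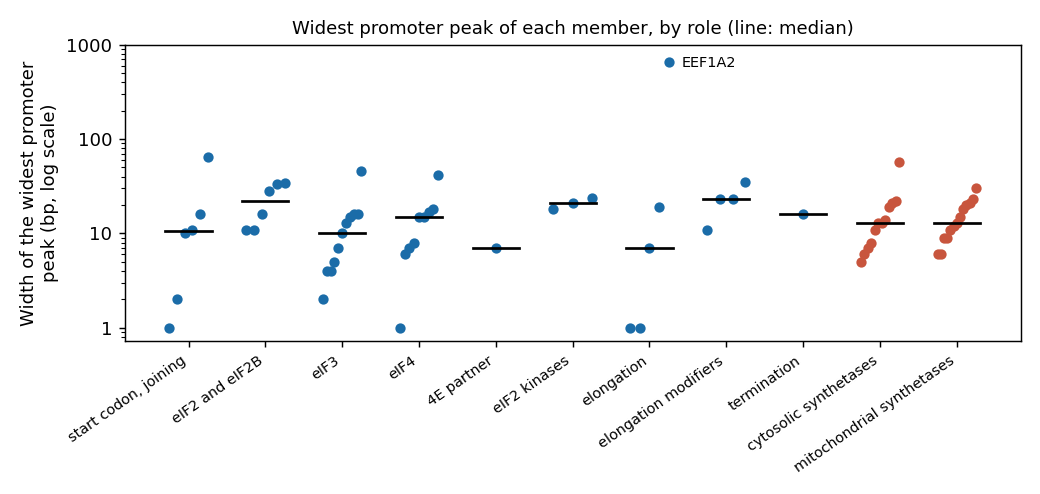
Width in bp (log scale) of the widest promoter peak of each member, grouped by role, with a line at the median of each role (blue, factors and red, synthetases). EEF1A2, at 656 bp, stands an order of magnitude above every other member, of which the highest is EIF1B at 64 bp, while 4 factors lie at 1 bp.

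Of the 12 cytosolic synthetases, 3 had 3 promoter peaks, 8 had 2 and 1 had a single peak. CARS, which charges cysteine tRNA, had 3 peaks of 6, 6 and 8 bp within 32 bp of chromosome 5, and EPRS, which charges both glutamate and proline tRNA, had 3 peaks of 6, 1 and 2 bp within 18 bp of chromosome 3. WARS1, the tryptophan enzyme, had 2 peaks of 13 and 4 bp and a 10 bp peak 228 bp upstream of them on chromosome 5 (48777885 to 48778142, minus strand). IARS1, the isoleucine enzyme, had a 21 bp peak and a 1 bp peak 2110 bp downstream of it on chromosome 12. In the other 7 genes with 2 peaks the gap was short, from 9 bp at DARS to 36 bp at LARS1, with AARS at 19 bp, NARS at 10 bp and GARS, HARS and YARS between 21 and 24 bp. KARS, the lysine enzyme, was the member with 1 peak, 5 bp wide, on chromosome 11.

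Mitochondrial synthetases had from 1 to 4 promoter peaks each, against 1 to 3 in cytosolic ones. IARS2 had 4 peaks over 226 bp of chromosome 3, in pairs that lay 185 bp apart. CARS2 had peaks of 21 and 16 bp on chromosome 1 and a further one of 7 bp lying 5970 bp upstream of them, the longest gap of any member. FARS2, the phenylalanine enzyme, had 3 peaks within 66 bp of chromosome 2. EARS2 and NARS2 had 2 peaks each, 9 and 11 bp apart. AARS2, LARS2, MARS2, PARS2, RARS2, WARS2 and YARS2 had 1 each, from 6 bp at RARS2 to 30 bp at WARS2. PARS2 also had unlabelled own-strand peaks 14 and 33 bp past the labelled one, and MARS2 had 1 at 20 bp, so a gene with 1 labelled peak did not always have 1 start site cluster.

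Promoter peaks over 100 bp apart marked 7 translation factors (15.2%, interval 7.57 to 28.2) and 4 synthetases (16%, interval 6.40 to 34.7), beside 19% of all labelled genes. They were EEF1A1, EIF1B, EIF2B3, EIF2S3, EIF3B, EIF4A2 and EIF5A2, and CARS2, IARS1, IARS2 and WARS1. The distal peak was 1 bp wide in EIF2B3 and IARS1, and both peaks were 1 bp wide in EEF1A1. Without 1 bp peaks these 3 genes left the set.

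Several promoters of both families lay head to head with another start site. An opposite-strand peak pointing away within 400 bp upstream of a promoter peak was found at 12 of 25 synthetases (48%, interval 30.03 to 66.5) and at 14 of 46 translation factors (30.4%, interval 19.1 to 44.8), beside 22.1% of all labelled genes. The share was 8 of 13 in mitochondrial synthetases (61.5%, interval 35.5 to 82.3) and 4 of 12 in cytosolic ones (33.3%, interval 13.8 to 60.9). In the ribosomal protein sets it was 19 of 56 (33.9%) and, for mitochondrial ribosomal proteins, 19 of 48 (39.6%). Intervals of these sets overlapped. KARS and GARS, which serve both the cytosol and mitochondria in mammals, were counted as cytosolic and are among those 4 cytosolic genes. The opposite peak was the labelled promoter of another gene at 5 synthetases (20%) and 8 translation factors (17.4%), beside 11.1% of all labelled genes.

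AARS2 lay closest to its partner, with 3 promoter peaks of RNF8, a ubiquitin ligase of the DNA damage response, 16 to 39 bp upstream. WARS1 faced WDR25 at 23 bp. FARS2 faced LYRM4, which helps build iron-sulfur clusters in mitochondria, at 83 and 103 bp. RARS2 faced ORC3, a subunit of the origin recognition complex, at 137 bp. All of these but WARS1 are mitochondrial synthetases. A labelled partner was found at 4 of 13 mitochondrial synthetases (30.8%, interval 12.7 to 57.6). Of cytosolic ones 1 of 12 had one (8.33%, interval 1.49 to 35.4), and these intervals overlapped. The share was 15 of 48 (31.25%) in mitochondrial ribosomal proteins, 9 of 56 (16.1%) in ribosomal proteins and 11.1% over all labelled genes. Among the factors, EEF2KMT faced NDUFB6, a respiratory complex I subunit, at 34 and 53 bp, and EIF2B1 faced GTF2H3, a subunit of the transcription factor TFIIH, at 47 and 60 bp. EIF2S1 faced ATP6V1D, a proton pump subunit, at 49 and 67 bp. EIF4EBP2 faced LRRC20 at 279 and 295 bp, and EEF1D faced TIGD5 at 370 bp. EIF3I, EIF3E and EIF4A3 faced genes named only by an Ensembl identifier, at 49, 113 and 192 bp. No further member of either family was among the partners.

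At the remaining 13 genes the opposite peak carried no label. KARS had 4 such peaks between 36 and 135 bp upstream, the nearest of them 31 bp wide against 5 bp for its own promoter peak. EIF2S3 had 3 between 43 and 77 bp, EIF3A 2 at 47 and 63 bp, and IARS2 1 at 46 bp. CARS2, MARS2, EARS2, GARS, EIF2AK2, EIF3L and EIF5 had 1 to 3 each between 56 and 308 bp. In IARS1 and EIF4A2 the opposite peaks lay upstream of a later promoter peak but past the first one, by 1789 and 1824 bp in IARS1 and 701 bp in EIF4A2. That later promoter peak was 1 bp wide in IARS1 and 2 bp wide in EIF4A2. Both genes are included in the 12 of 25 synthetases and 14 of 46 factors given above. An unlabelled peak may belong to a gene without a label or to a transcript without an annotation, and the list does not tell these apart.

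**Figure D4:**
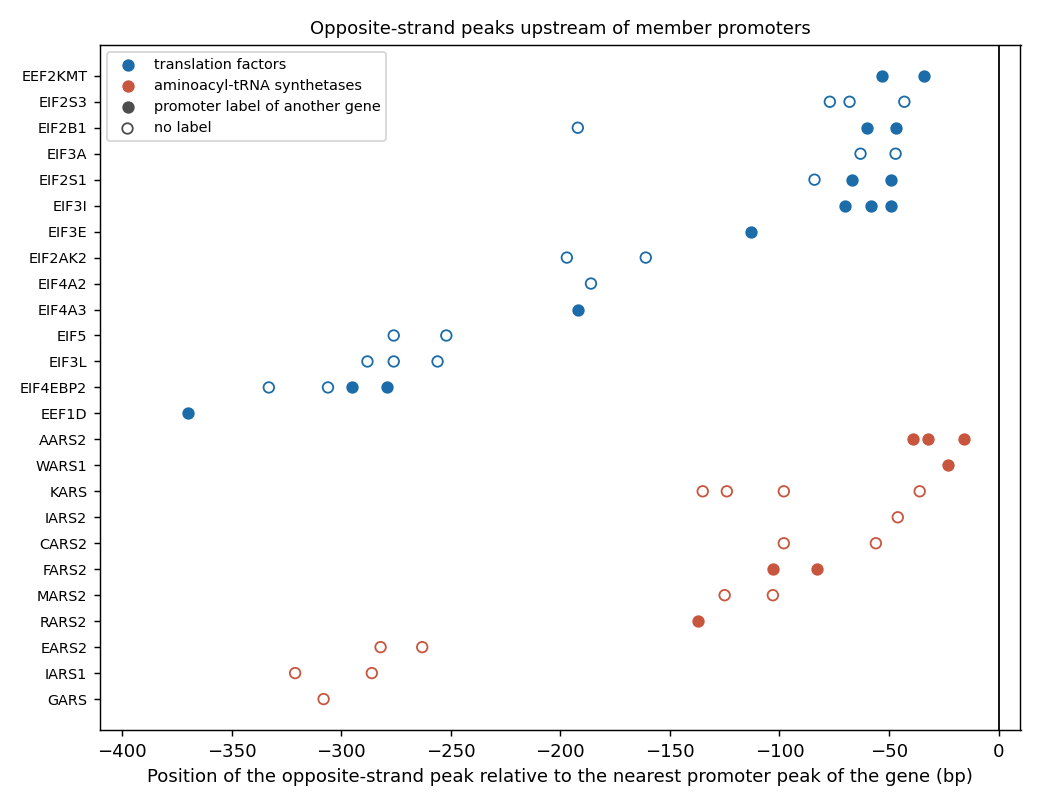
Position in bp of the opposite-strand peaks within 400 bp upstream of a promoter peak, for 25 members, with that promoter peak at 0. Filled marks are labelled promoters of another gene and open marks carry no label, and the nearest labelled partner lies within 50 bp at AARS2, WARS1, EEF2KMT, EIF2B1, EIF2S1 and EIF3I. Blue marks are translation factors and red marks synthetases.

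Unlabelled peaks followed the promoters of the 2 families in unequal numbers. In a window that began 500 bp and ended 20000 bp downstream, the mean per translation factor was 4.24 own-strand peaks and 1.87 opposite-strand peaks. Synthetases had 1.40 and 2.28, and all labelled genes 2.43 and 1.88. Medians lay closer, at 2 own-strand peaks in factors and 1 in both synthetases and all genes. On the opposite strand the medians were 2 in factors, 2 in synthetases and 1 over all genes. More peaks on the own strand than on the opposite one were found at 31 of 46 factors (67.4%, interval 53.0 to 79.1) and 7 of 25 synthetases (28%, interval 14.3 to 47.6), beside 41.8% of all labelled genes. Ribosomal protein genes stood near the factors, at 34 of 56 (60.7%). They had a mean of 4.30 own-strand and 2.55 opposite-strand peaks, and medians of 3.5 and 2. At least 10 own-strand peaks were found at 8 factors (17.4%) and no synthetase (0 of 25, interval to 13.3), beside 3.88% of all labelled genes. In ribosomal protein genes it was 5 of 56 (8.93%). The intervals of the families did not overlap for the first of these shares in this window. They overlapped with an end at 5000 bp, where 39.1% of factors and 16% of synthetases had more on the own strand, and at 50000 bp, with 60.9% and 40%. For at least 10 peaks they overlapped too. The gene span in the reference table differed too, with a median of 11246 bp in translation factors and 21734 bp in synthetases, and its part in the result was not tested.

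Elongation factors held 2 of the 3 highest counts. EEF2 had 21 own-strand and 5 opposite-strand peaks, EEF1A2 had 20 and 2, and EEF1A1 and EEF1D had 11 own-strand peaks each, with 2 and 6 on the opposite strand. EIF5A2 had 4 and 2, so all 5 labelled elongation factor genes had more on their own strand (interval 56.6 to 100). The share was 41.8% over all labelled genes and 60.7% in ribosomal protein genes, which lies inside that interval. The own-strand peaks of EEF1A2 lay between 3809 and 11163 bp past its promoter, were at most 19 bp wide and had a median width of 11 bp. Those of EEF1A1 lay between 2038 and 10617 bp. The gene spans in the table were 13161 bp for EEF1A2, 4645 bp for EEF1A1 and 7877 bp for EEF2. By those spans the windows reached past the ends of these genes. Counted from the first promoter peak, the last own-strand peak of EEF1A2, at 11163 bp, lay within its span. The last ones of EEF1A1 and EEF2, at 10617 and 14384 bp, lay past theirs. For EEF2, a labelled gene named by an Ensembl identifier began 8680 bp downstream on the same strand, and 15 of the 21 peaks came before it.

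Among initiation factors EIF4G1 had 19 own-strand and 5 opposite-strand peaks, EIF3I 11 and 3, EIF4G2 and EIF5B 10 and 5 each, and EIF5 8 and 3. The window of EIF3I took in the own-strand promoters of FAM167B, LCK and HDAC1, and 8 of its 11 peaks came before the first of them. In EIF4G2, 6 of 10 came before the next labelled promoter. Counting peaks only up to the next labelled promoter on the own strand left 173 of 195 peaks in translation factors (3.76 per gene) and 22 of 35 in synthetases (0.880 per gene). The same count was not made over all labelled genes, so neither value can be set against them. The highest synthetases were PARS2, with 6 own-strand and 11 opposite-strand peaks, EARS2 with 4 and 2, and KARS and EPRS with 3 and 0 each. The 6 peaks of PARS2 all lay past the promoter of TTC4, and the 4 of EARS2 also lay past another labelled promoter. No own-strand peak followed 8 of 25 synthetases (32%) and 8 of 46 factors (17.4%), beside 29.7% of all labelled genes. Among these were WARS1, GARS, FARS2 and RARS2, and EIF4A2, EIF4H, EIF2B3 and EIF3M.

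**Figure D5:**
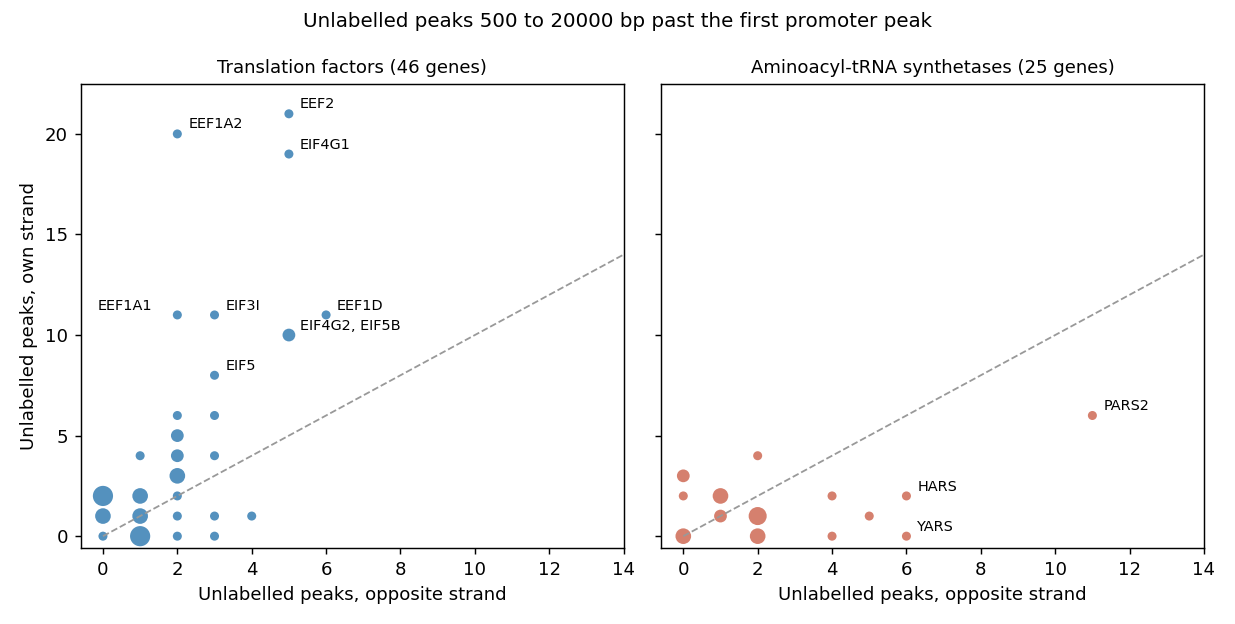
Unlabelled peaks on the own strand (y axis) against those on the opposite strand (x axis) between 500 and 20000 bp downstream of each gene's first promoter peak, with mark area showing how many genes share a point and a dashed line of equality. EEF2, EEF1A2 and EIF4G1 stand at 19 to 21 own-strand peaks, while no synthetase exceeds 6.

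Not every gene of these families carried a label. In the reference table, 45 of 59 protein-coding translation factor genes that the rule would take were labelled (76.3%), and 19 of 32 synthetase genes (59.4%), beside 57% of all protein-coding genes with a symbol. With older names the synthetase count was 20 (62.5%), beside 57.7% of all such genes. With names also read with and without a final 1 (IARS1 for IARS) it was 24 (75%). No share over all genes was counted for that last reading, so the 75% has no such value beside it. Without a label were EEF1B2, EEF1E1, EEF1G, EIF2A, EIF2AK1, EIF2B4, EIF2B5, EIF2D, EIF3K, EIF4B, EIF4E1B, EIF4EBP3, EIF4ENIF1 and EIF5A, and HARS2, MARS, QARS, RARS, SARS1, SARS2, TARS and TARS2. Of these 22 genes, 3 could not be placed between labelled neighbours by gene order. The stretches around the other 19 held peaks in every case, with EIF3K and SARS2 in the same stretch. Stretches ran from 5326 bp (HARS2) to 220575 bp (TARS). No share over like stretches was counted, so nothing is read from the presence of peaks. For 7 of the genes the stretch held no other gene of the table.

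In 5 of the 7 stretches, a count made after the values were seen, an unlabelled peak pointed away from a flanking promoter less than 1000 bp from it. Of all labelled genes 27.6% had an opposite-strand peak within 1000 bp upstream, and each stretch has a flanking gene on both sides, so nothing is read from this count. Beside EEF1B2, which encodes the exchange subunit for eEF1A, an unlabelled 232 bp peak lay on chromosome 7 (12576047 to 12576278, minus strand), 289 bp from the first promoter peak of NDUFS1, in a stretch that also held a labelled gene named by an Ensembl identifier. Beside HARS2, a 21 bp peak lay on chromosome 13 (1571495 to 1571515, plus strand), 187 bp from ZMAT2 on the same strand as HARS. Beside EIF2A an 11 bp peak lay 157 bp from SERP1, beside EIF2B4, in a stretch with 2 peaks labelled U1, a 15 bp peak lay 131 bp from SNX17, and beside EIF2D a 25 bp peak lay 619 bp from DYRK3. The reference table gives no strand, so these peaks could not be assigned to the unlabelled genes. Whether the unlabelled genes were transcribed was not determined.

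Genes of the same processes outside the rule, counted where their symbol was in the reference table, were labelled in most cases, beside the 57.7% given above for all protein-coding genes under current or older names. Of other synthetase genes and their partners, 9 of 11 had a promoter peak: AIMP1 and AIMP2, scaffolds of the multi-synthetase complex, FARSB, a subunit of the cytosolic phenylalanine enzyme, QRSL1 and SEPSECS had 3 each, and FARSA and GATC had none. All 6 factors of mitochondrial translation whose symbol was in the table were labelled, with GFM2 and MTRF1 at 3 peaks. TUFM, TSFM, MTRFR and MRRF were not in it and had no promoter peak under those names. The same held for DDIT3, TRIB3, PPP1R15A, SHMT2, PAIP2, DHPS, DAP5 and TARS3 of the other lists. Of other cytosolic factors 12 of 13 were labelled, with PELO, MCTS1 and GSPT2 at 4 and ABCE1, a ribosome recycling factor, at 3, while PABPC4 had none. In the mTOR list 11 of 12 were labelled. PDCD4, an inhibitor of eIF4A, had 10 peaks, more than any member of either family, and LARP1, which binds pyrimidine-rich leaders, had 6. RPS6KB2 had 5 and TSC1 had none. In the amino acid stress list 10 of 12 were labelled, with CTH at 4, SESN2 at 3 and ATF4, CHAC1, ASNS, PSAT1 and IMPACT at 2, and PHGDH and PPP1R15B had none.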

How the data were processed

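The libraries were made by the authors with the nAnT-iCAGE protocol from 5 µg of total RNA each, with molecular identifiers, per the labels' protocols. STAR 2.7.9a, UMI-tools 1.1.4 and GRCg6a are named in the submitters' processing notes. The deposited list is named as a robust DPI set, that is, from decomposition-based peak identification. Its settings and threshold, the handling of reads with several matches and the promoter label rule are unknown here. The deposited list holds a score of 1 in every row, so peaks could not be ranked. No column belongs to a library, so depth is unknown, and the planned comparisons of growth types and tissues were not made.

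Coordinates are 1-based, after adding 1 to the deposited starts. Gene-level values leave out 7 of 10437 genes whose peaks lay on several sequences or strands. Distances run between representative positions. The list does not say how these are counted, and they were read as offsets from the lower edge on both strands, from the mirrored shares at the edges: on plus-strand peaks over 1 bp wide, 22.8% lay at the lower edge and 19.2% at the upper, on minus-strand peaks 19.1% and 22.9%. The members and lists were chosen with earlier results of these data known. Named genes were, per role, the 4 with the most peaks, plus the widest, dispersed, paired, downstream-rich and unlabelled ones; other members named were chosen after their values were seen. For 1 member, included in the counts and shares, single values are not reported here. Names were matched to a RefSeq table of GRCg7b, used for names, spans and gene order. The counting was tested on simulated peaks. Python 3.11.15, numpy 2.4.6, pandas 2.3.3, scipy 1.17.1 and matplotlib 3.10.9 were used.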

Additional observations from a re-analysis of the deposited data

How the results depend on the processing

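No paired analysis was possible because the list holds no value per library. Merging peaks within 20 bp lowered the share with at least 2 promoter peaks to 47.8% in translation factors and 40% in synthetases, beside 46.1% of all labelled genes. With a distance of 500 bp, 6.52% of translation factors and 8% of synthetases had separate promoters, beside 6.18% of all genes. Taking the widest peak of each gene moved the median width to 15 bp in factors and 13 bp in synthetases, beside 15 bp over all labelled genes. With a downstream window of 500 to 5000 bp, 39.1% of factors had more peaks on the own strand, beside 16% of synthetases and 27% of all genes. With 500 to 50000 bp the shares were 60.9%, 40% and 44.8%. In both windows the intervals of the families overlapped. Reading synthetase names with and without a final 1, chosen after seeing the data, moved their labelled share to 75%. This reading was not applied to all genes. The other alternatives moved the values by less than their 95% intervals. The planned motif and start sequence results and the edgeR comparison of libraries were not run. Unknown depth limits every absence: a gene without a second peak may have one below the authors' threshold.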
